A study of Mus musculus with 3 samples.

Results

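Of the 327114 CpGs covered more than 20 times in both wild-type and Dnmt3a KO mouse ES cells, 16988 were at least 80% methylated in wild type, and 5733 of these were also at least 80% methylated in Dnmt3a KO. These 5733 CpGs, selected on their measured levels and called kept here, are 33.7% of the methylated CpGs (Wilson 95% interval 33.0 to 34.5%). The other 11255, at least 80% in wild type and under 80% in Dnmt3a KO, are called lost and serve as the comparison. The 3 libraries together list 1388024 CpGs. Both classes were set from the levels of the same reads, so the size of the wild-type to Dnmt3a KO difference in them is a description and not a result.

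The data are reduced-representation bisulfite sequencing (RRBS) libraries of mouse ES cells, 1 per genotype, in which MspI fragments excised at 150 to 250 and 250 to 350 bp were bisulfite converted and amplified with 10 PCR cycles. By the mm9 sequence, MspI fragments around kept and lost CpGs had median lengths of 137 and 140 bp, under this size range. The reason was not tested. Wild-type and Dnmt3A-KO cells have a mixed 129-C57Bl/6 background, and wild-type cells were grown either on feeders or on gelatine. The Dnmt3A-KO cells were made with CRISPR/Cas9, lack both isoforms of the enzyme, retain DNMT3B and DNMT1 and were grown on gelatine. The Dnmt-TKO cells, which lack DNA methylation and have the strain label J1, were also grown on gelatine. All 3 lines were kept in serum medium with LIF. With 1 library per genotype, culture, cell line and genotype cannot be told apart, and no difference has a replicate check. The median number of reads at a listed CpG was 29 for wild type, against 17 for Dnmt3a KO and 12 for Dnmt TKO. The files hold methylation and no expression, so the cell type could not be checked against marker genes.

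DNA methylation in mammals sits mainly on CpGs. DNMT1 copies it onto the new strand after replication, while DNMT3A and DNMT3B add it to unmethylated sites, and both de novo enzymes are active in ES cells. As background, DNMT3A is known to prefer a pyrimidine right after the CpG and DNMT3B a purine. Bisulfite sequencing does not separate methylcytosine from hydroxymethylcytosine.

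The stretches of at most 200 bp with most kept and no lost CpG, or with most lost and no kept CpG, are printed to show how both classes look in the genome. Untranslated regions were left out of this choice. All are plus-strand mm9 sequence in lower case, and capitals mark the methylated CpGs, as defined above. The first 3 are kept. They lie in a coding exon of Zfp629 (chr7:134755173-134755368), in a coding exon of Col6a2 (chr10:76077279-76077370) and between genes (chr9:3948189-3948300), 50847 bp from Gucy1a2. The last 2 are lost and lie in coding exons of Bdkrb2 (chr12:106830610-106830743) and Zfp787 (chr7:6084289-6084482).
Zfp629, kept: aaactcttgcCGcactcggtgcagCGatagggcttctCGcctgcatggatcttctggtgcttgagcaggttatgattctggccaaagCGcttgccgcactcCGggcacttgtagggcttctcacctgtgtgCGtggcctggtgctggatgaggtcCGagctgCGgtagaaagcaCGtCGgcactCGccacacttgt
Col6a2, kept: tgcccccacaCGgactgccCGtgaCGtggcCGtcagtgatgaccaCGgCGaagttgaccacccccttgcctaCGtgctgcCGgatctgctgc
Intergenic on chromosome 9, kept: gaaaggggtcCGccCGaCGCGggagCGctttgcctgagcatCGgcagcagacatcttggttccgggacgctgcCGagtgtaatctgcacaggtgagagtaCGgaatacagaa
Bdkrb2, lost: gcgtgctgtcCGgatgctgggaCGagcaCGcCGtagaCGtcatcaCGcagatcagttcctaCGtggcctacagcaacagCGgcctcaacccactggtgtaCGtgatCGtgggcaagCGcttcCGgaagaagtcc
Zfp787, lost: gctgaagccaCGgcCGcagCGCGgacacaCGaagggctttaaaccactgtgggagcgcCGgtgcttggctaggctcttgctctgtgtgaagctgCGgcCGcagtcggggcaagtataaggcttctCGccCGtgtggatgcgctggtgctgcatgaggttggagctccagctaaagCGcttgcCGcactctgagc

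In the Zfp629 stretch, which encodes part of a zinc finger protein, the 11 marked CpGs had 84.0, 90.5, 83.2, 92.6, 95.2, 85.9, 88.4, 90.7, 91.9, 89.5 and 86.9% in wild type, in 54 to 106 reads. In Dnmt3a KO the same CpGs had 91.1, 88.9, 82.2, 90.5, 92.6, 90.6, 100, 96.97, 90.9, 93.9 and 87.5%, in 21 to 45 reads. The levels of both libraries overlapped along the whole stretch. In Dnmt TKO, 0 of 202 read calls were methylated. Calls are summed over CpGs, so a read over several CpGs counts at each.

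The 8 CpGs of the Col6a2 stretch, which encodes part of a collagen VI chain, had 89.2, 87.5, 86.8, 89.2, 85.7, 84.9, 82.5 and 80.8% in wild type. They had 93.8, 89.6, 85.4, 89.4, 84.4, 84.4, 80 and 85.2% in Dnmt3a KO. The intergenic stretch on chromosome 9 averaged 94.0% in wild type against 90.4% in Dnmt3a KO over 8 CpGs. It differs from the others in that the 31 bases around some of its CpGs occur up to 56 times in the genome. In Dnmt TKO, 5 of 101 read calls were methylated there. The levels were 5.56, 0, 5.56, 5.56, 5.88 and 8.33% at neighbouring CpGs with 12 to 18 reads. The same reads can cover several of these CpGs, so the calls are not separate molecules.

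The 12 marked CpGs of Bdkrb2, a bradykinin receptor, averaged 87.6% in wild type against 57.7% in Dnmt3a KO, with levels of 39.2 to 70.8% in the latter. Its 3 CpGs in the context ACGT had 39.2, 56.9 and 41.7% in Dnmt3a KO, and the other 9 had 56.9 to 70.8%. In the kept stretches, ACGT CpGs had 90.9% in Zfp629 and 85.4 and 80% in Col6a2 in Dnmt3a KO. The 12 marked CpGs of Zfp787, another zinc finger gene, had 80.8 to 94.7% in wild type and 35.9 to 52.4% in Dnmt3a KO, so the 2 libraries did not overlap. In Dnmt TKO, 0 of 146 read calls, summed over CpGs, were methylated in Bdkrb2 and 0 of 118 in Zfp787. The stretches were chosen for these levels, which are therefore a description.

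Over all kept CpGs, levels averaged 88.0% ± 4.28 (SD over CpGs, n = 5733) in wild type against 86.8% ± 4.91 in Dnmt3a KO, with a median of 64 and 26 reads. Dnmt3a KO levels ran from 80 to 100% with a median of 86.2%, and 1619 kept CpGs had at least 90%, 684 of them in both libraries. All reads were methylated in Dnmt3a KO at 101 kept CpGs. The Dnmt3a KO level was below wild type at 3349, above it at 2321 and equal at 63. Lost CpGs had 85.6% ± 3.88 (SD over CpGs, n = 11255) in wild type and 63.7% ± 12.9 in Dnmt3a KO, with a median of 66 and 27 reads. Most of them stayed well methylated: 69.3% of the lost CpGs had 60 to 80% in Dnmt3a KO and 13.8% had under 50%.

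The border between the classes runs through a dense part of the distribution. In Dnmt3a KO, 1181 kept CpGs lay at 80 to 82%, with a mean of 81.0%, and 815 lost CpGs lay at 78 to 80%, with a mean of 78.8%. The Wilson 95% interval of the Dnmt3a KO level was wholly at or above 80% at 371 kept CpGs and wholly below it at 5019 lost CpGs. At the remaining 11598 methylated CpGs, 68.3% of all, the interval included 80%. Fisher's exact test on the reads of both libraries (two-sided, Benjamini-Hochberg q under 0.05 and at least 20 percentage points) called 2000 of the lost CpGs lower in Dnmt3a KO, which is 17.8%, and 0 higher. It called 0 kept CpGs lower and 0 higher, and 4 kept CpGs had q under 0.05. Over all shared CpGs it called 2.45% lower and 0.0532% higher. The rule used this contrast, so nothing is read from these counts, and the test compares libraries, not genotypes.

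To allow for selection on the same reads, the reads of each CpG were divided at random into 2 equal sets. The classes were set on the first set of each library, with more than 10 reads, and levels were measured on the other. Of 5462 CpGs chosen as kept, the Dnmt3a KO level fell from 88.1% in the choosing reads to 80.1% ± 12.6 (SD over CpGs) in the others, while wild type went from 88.6 to 86.4%. In the other reads, 56.6% of them were still at least 80% in Dnmt3a KO and 49.1% in both libraries. At 9981 CpGs chosen as lost, the Dnmt3a KO level rose from 60.1 to 64.5% and wild type fell from 86.5 to 82.04%. The Dnmt3a KO minus wild type difference in the other reads was -6.27 percentage points for kept and -17.5 for lost CpGs. The classes thus differed in reads that did not choose them. As a group, the 5462 CpGs chosen as kept were 6.27 percentage points under wild type in the other reads, so "fully kept" does not describe these. They were classed on fewer reads than the kept CpGs of the rule, for which such a difference in unused reads was not measured.

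**Figure D1:**
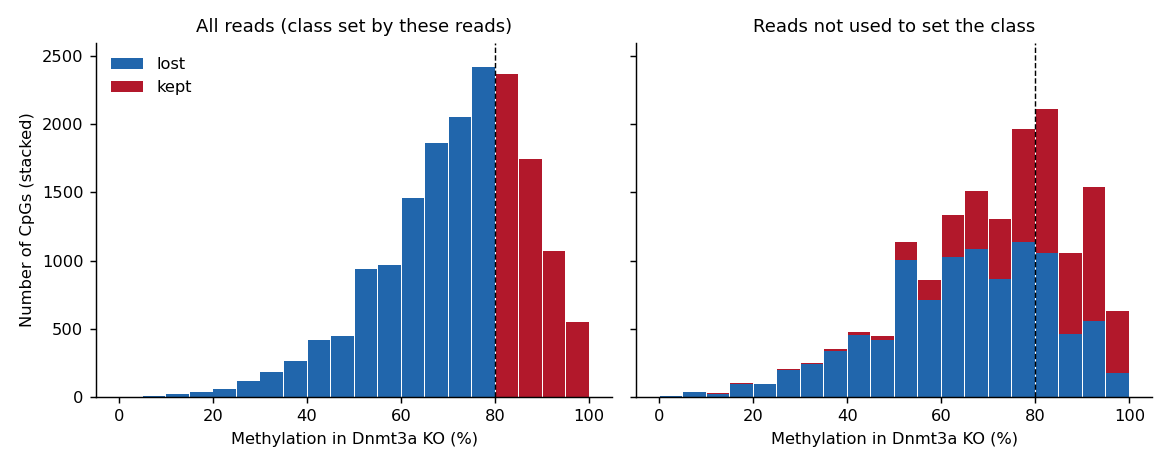
Number of CpGs (vertical axis) by methylation in Dnmt3a KO in steps of 5 percentage points (horizontal axis, %), kept CpGs red on top of lost CpGs blue, with the limit of 80% dashed. On the left the same reads set class and level. On the right the class comes from 1 set of reads and the level from the other, where both classes overlap and means are 80.1% for kept and 64.5% for lost CpGs.

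The base right after the CpG differed between the classes. Read 5′ to 3′ on each strand, G followed the CpG at 35.3% of kept and 28.5% of lost CpGs, a difference of 6.89 percentage points (Newcombe 95% interval 5.84 to 7.95), and A at 19.7 and 16.7%. C followed at 27.4 and 34.3% and T at 17.6 and 20.5%. The difference for G was positive on 19 of 19 autosomes, from 2.78 to 10.7 percentage points. At the second base after the CpG, A stood at 28.9% of kept and 22.5% of lost CpGs. From the third to the eighth base, the largest difference was 2.51 percentage points.

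A CpG reads as CpG on both strands, so each has a following base on either. With a purine (A or G) after the CpG on neither strand, 1110 of 4220 methylated CpGs were kept, which is 26.3% (Wilson 95% interval 24.997 to 27.7%). With a purine on 1 strand, 32.4% of 8998 were kept (31.5 to 33.4%), and with a purine on both, 45.3% of 3716 (43.7 to 46.9%). The share rose with each purine. Mean wild-type levels were close to each other, at 86.7, 86.3 and 86.2%, while Dnmt3a KO means were 67.4, 71.2 and 76.7%. Among all shared CpGs, 26.4% had a purine on neither strand, 55.3% on 1 and 18.3% on both. The kept share was higher with a purine on both strands than on neither on 19 of 19 autosomes, by 10.5 to 28.0 percentage points with a median of 18.6. The number of purines is fixed by the genome sequence and was not used to choose the classes. All intervals treat each read as a separate molecule and each CpG as independent of those beside it, so they hold counting error alone and may be too narrow.

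In terms of the 4 bases around a CpG, each named in the orientation that comes first in the alphabet and read on both strands, kept CpGs were most frequent in CCGG (45.7% of 1029 kept), CCGA (45.6% of 2254) and TCGA (43.0% of 433). These contexts, in which the CpG is followed by a purine on both strands, hold 5.17, 11.2 and 1.95% of all shared CpGs. Kept CpGs were least frequent in ACGT (22.7% of 612), ACGC (26.8% of 1919) and GCGC (27.0% of 1689), which have a pyrimidine after the CpG on both strands and hold 2.27, 9.41 and 14.7% of shared CpGs. In between lay ACGG with 35.9%, ACGA with 32.7%, CCGC with 32.5% and GCGA with 27.6%. CCGG is the MspI site at which the fragments were cut. Without it, 45.2% of 2687 CpGs with a purine on both strands were kept.

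With 2 bases after the CpG, and each methylated CpG counted once per strand, the kept share was 44.7% before TA, 44.3% before AT and 43.7% before AA. It was 22.6% before CC, 25.8% before CT and 26.8% before TC. TA was the highest although T is a pyrimidine, while TT, TG and TC had 30.5, 27.9 and 26.8%. The Wilson interval of TA, 41.6 to 47.9%, overlapped those of AT (41.2 to 47.4%) and AA (41.2 to 46.3%). TA was not the only exception. CA had 36.3% and CG 35.9%, above AC, GT and AG, which begin with a purine and had 35.3, 35.1 and 31.3%. Of these, only the intervals of CA (34.7 to 38.0%) and AG (29.4 to 33.3%) did not overlap.

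With contexts pooled by their number of purines, the order by purines was found again at CpGs that the rule left out. At CpGs of at least 80% in wild type with 11 to 20 reads in Dnmt3a KO, 33.7% of 6744 with a purine on neither strand, 38.9% of 14020 with 1 and 48.7% of 11509 with both were at least 80% in Dnmt3a KO. At shared CpGs of 20 to 80% in wild type, the Dnmt3a KO library had lost 48.2, 38.2 and 20.7% of the wild-type methylation, respectively (7187, 15579 and 7144 CpGs), from wild-type means of 54.8, 55.7 and 56.2%. The first of these orders between neither and both strands was present on 19 of 19 autosomes, by 6.06 to 21.9 percentage points. The second was too, with a difference in relative loss, both minus neither, of -37.6 to -20.9 percentage points. In the reads that did not choose the classes, the Dnmt3a KO means of methylated CpGs were 65.7, 69.97 and 75.5%. TA was also the highest of the 16 base pairs at CpGs with 11 to 20 reads, at 50.1%, and CC the lowest, at 28.6%. The Wilson interval of TA there, 47.6 to 52.5%, overlapped that of AT, 46.3 to 50.9%. CG with 46.0% and CA with 43.9% were again above AC, GT and AG, with 40.8, 42.1 and 37.4%. Of the 11509 CpGs with 11 to 20 reads and a purine on both strands, 6978 were in CCGG. Without CCGG, 49.0% of the other 4531 were at least 80% in Dnmt3a KO. Single contexts did not all follow the order by purines. At 11 to 20 reads, GCGA (purine on 1 strand) had 34.3% and ACGC (neither) 36.5%. At 20 to 80% in wild type, ACGT (neither) lost 42.9%, against 45.2% for CCGC and 44.1% for GCGA (1 strand each).

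**Figure D2:**
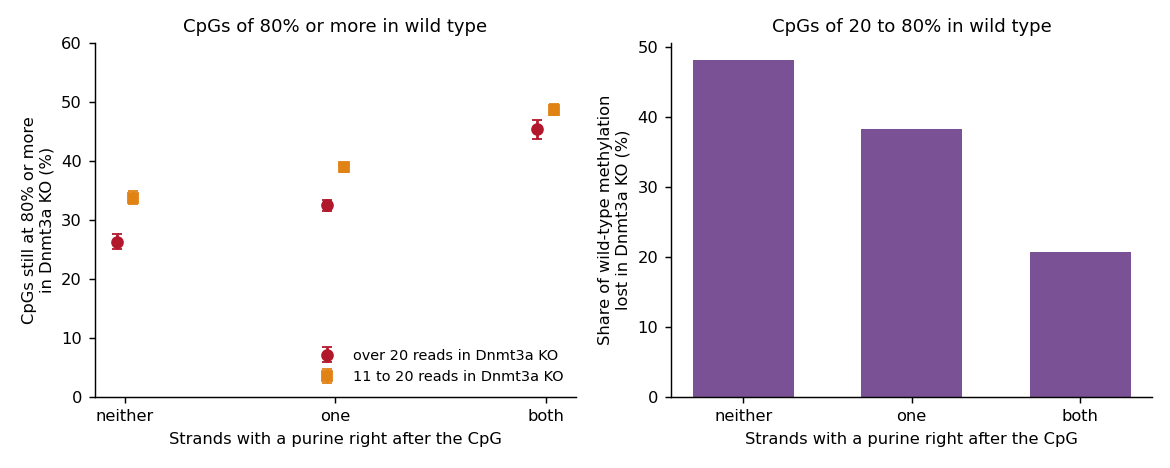
Left, share of CpGs of at least 80% in wild type that are also at least 80% in Dnmt3a KO (vertical axis, %) by the strands with a purine after the CpG (horizontal axis), for the CpGs of the rule and for CpGs of 11 to 20 reads, with Wilson 95% intervals as bars. Right, share of wild-type methylation lost in Dnmt3a KO (%) at CpGs of 20 to 80% in wild type, which falls from 48.2 to 20.7%.

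The order by purines also stood within each gene part. In exons of protein-coding genes, 24.9, 30.3 and 42.7% of methylated CpGs with a purine on neither, 1 and both strands were kept. In introns the shares were 25.04, 30.2 and 43.7%, and between genes 29.6, 37.3 and 50.3%. Within each class of purines, intergenic CpGs thus had the highest share.

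By gene part alone, 31.8% of 6615 exonic, 31.6% of 5173 intronic and 38.4% of 5200 intergenic methylated CpGs were kept (Wilson 95% intervals 30.7 to 32.9, 30.3 to 32.9 and 37.1 to 39.7%). Put the other way, 36.7% of kept and 40.1% of lost CpGs were exonic, a difference of -3.41 percentage points (-4.94 to -1.86), and 34.8 and 28.5% were intergenic, a difference of 6.35 (4.86 to 7.84). The intergenic difference was positive on 16 of 19 autosomes, and the exonic one was negative on only 12. Of all shared CpGs, 48.5% were exonic and 24.9% intergenic. Exonic coding sequence had 32.2% kept, and exonic sequence that is only untranslated had 26.1% of 482.

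Repeated sequence moved with this result. The 31 bases centred on the CpG occurred more than once in the genome at 11.4% of kept and 7.26% of lost CpGs. Kept shares were 32.7% of CpGs whose 31 bases occur once, 46.8% of those with 2 to 10 copies and 41.8% of those with at least 11. Among CpGs whose 31 bases occur once, 31.8% of exonic, 30.8% of intronic and 36.5% of intergenic CpGs were kept. The intergenic difference was then 4.48 percentage points (2.99 to 5.99), and the exonic one -1.77 (-3.42 to -0.105). Repeat annotation was not used here, and the part of repeats in the remaining difference was not tested.

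Kept CpGs lay farther from starts of protein-coding genes, with a median distance of 22805 bp against 16630 bp for lost CpGs and 302 bp for all shared CpGs. Within 1000 bp of a start 26.8% of 846 methylated CpGs were kept, and more than 50000 bp away 40.3% of 4452 were. Shares in between were 28.2, 29.6 and 33.7% at 1000 to 5000, 5000 to 10000 and 10000 to 50000 bp. The share was thus higher in each farther interval, though the Wilson intervals of the 3 nearest overlapped. Among intergenic CpGs alone the shares were 16.3% (of 49 CpGs), 31.2, 28.9, 36.7 and 42.0%, which did not rise in each interval.

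Local CpG number differed little. Within 100 bp on either side, the site included, kept CpGs had a mean of 7.76 CpGs and lost CpGs 7.99, a difference of -0.232 (95% interval -0.325 to -0.138) that was negative on 15 of 19 autosomes. All shared CpGs had 20.0, so both classes come from the CpG-poor part of the libraries. The kept share was 36.4% with 1 to 4 CpGs and 30.2% with at least 12. With 50 bp on either side, the difference was -0.00656 and its interval, -0.0674 to 0.0543, included 0. GC content ran the same way, at 56.9% around kept and 57.9% around lost CpGs, with 46.7% kept where GC was under 50% and 26.4% kept where it was at least 65%.

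**Figure D3:**
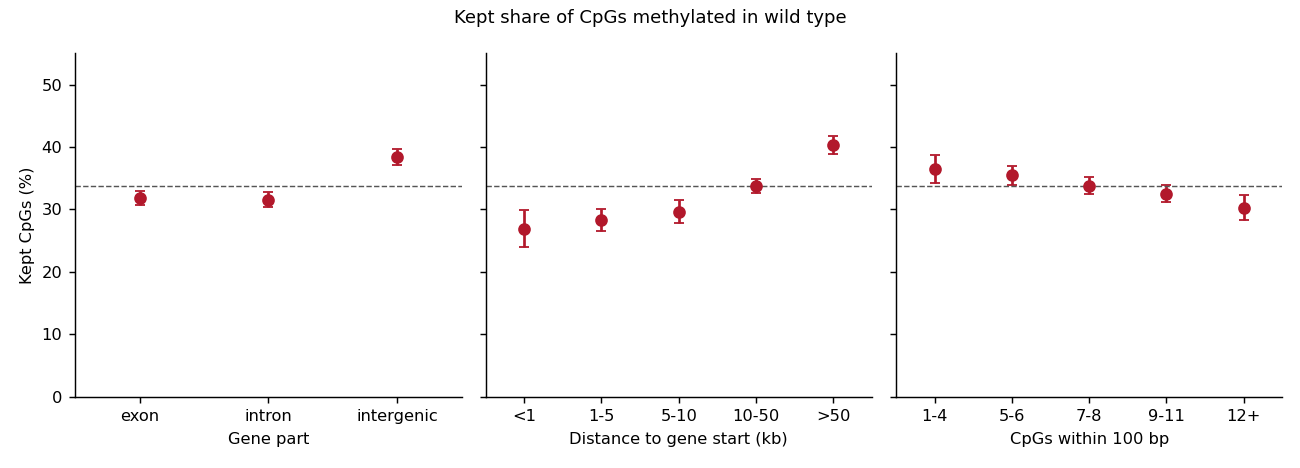
Kept share of methylated CpGs (vertical axis, %) by gene part, by distance to the nearest start of a protein-coding gene (kb) and by the number of CpGs within 100 bp, with Wilson 95% intervals as bars and the share over all methylated CpGs, 33.7%, dashed. Shares run from 26.8% within 1 kb of a gene start to 40.3% beyond 50 kb.

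The wild-type level and the read number, both part of the rule, moved with the kept share. It was 21.4% at 80 to 85% in wild type, 36.5% at 85 to 90% and 53.2% from 90% on. It was 36.4% at 21 to 25 reads in Dnmt3a KO and 29.0% at more than 40. By MspI fragment length in the mm9 sequence, it was 34.8% at 40 to 150 bp (10408 methylated CpGs) and 30.8% at 150 to 250 bp (5623). It was 34.5% at 250 to 350 bp (336), 41.3% from 350 bp on (520) and 46.8% under 40 bp (47). Among autosomes, it ran from 27.9% on chromosome 11 to 40.4% on chromosome 6. On the X chromosome, 25 of 33 methylated CpGs were kept, which is 75.8% (Wilson 95% interval 59.0 to 87.2%).

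Kept CpGs were found near each other. Of methylated CpGs within 50 bp of a kept CpG, 57.5% were kept, against 27.0% within 50 bp of a lost one. At 50 to 200 bp the shares were 47.6 and 28.6%, and at both distances a pair can share reads. At 200 to 1000 bp they were 54.8 and 32.9% over 2529 pairs, a difference of 21.8 percentage points. This value was uneven: it was positive on 13 autosomes and negative on 6, and without the CpGs of Zfp629 it was 15.1 percentage points. At 1 to 10 kb the shares were 34.4 and 29.8%, and at 10 to 100 kb 32.1 and 29.2%.

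CpGs that the rule did not use were compared in the same way. Of CpGs of at least 80% in wild type and with 11 to 20 reads in Dnmt3a KO, 49.2% were at least 80% in Dnmt3a KO when a kept CpG lay 200 to 1000 bp away and 40.7% when a lost CpG did. Within 200 bp the shares were 52.7 and 38.8%, and at 1 to 10 kb 41.2 and 38.7%. In levels, these CpGs had a Dnmt3a KO mean of 76.9% near kept CpGs (1095 CpGs) and of 73.2% near lost CpGs (1826 CpGs) at 200 to 1000 bp. Within 200 bp the means were 78.5 and 72.9%, and at 1 to 10 kb 73.7 and 72.7%. A CpG with both kinds at a distance counts on both sides. Within 200 bp, these CpGs can share reads with the kept or lost CpG. The shares and means at that distance are therefore not from separate reads.

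**Figure D4:**
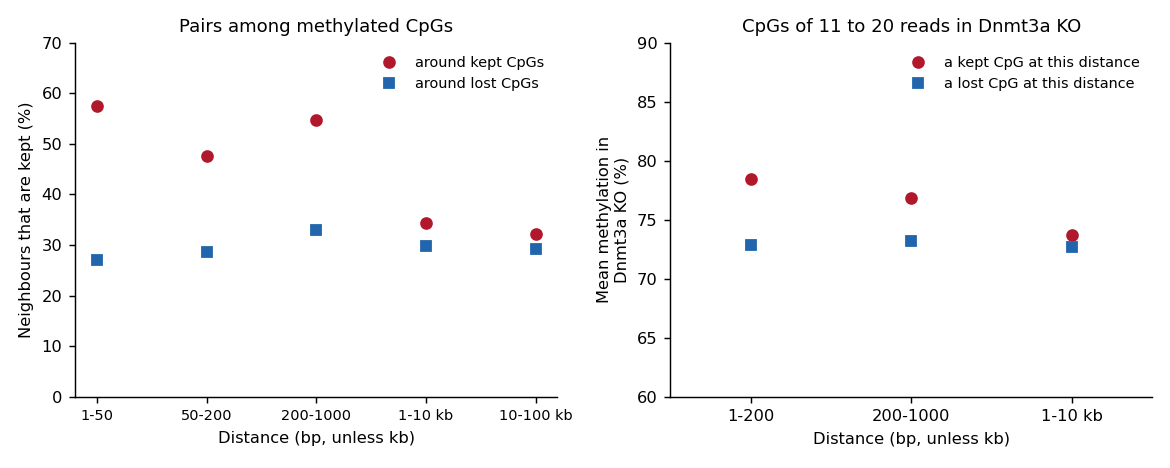
Left, share of methylated CpGs that are kept (vertical axis, %) by their distance from kept CpGs (red) and lost CpGs (blue). Right, mean methylation in Dnmt3a KO (%, axis from 60 to 90) of CpGs with 11 to 20 reads there that have a kept or a lost CpG at the given distance. Within 200 bp, CpGs compared in either part can share reads. The gap on the left narrows from 57.5 against 27.0% within 50 bp to 32.1 against 29.2% at 10 to 100 kb.

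With gaps of up to 1000 bp, the methylated CpGs formed 6846 clusters, of which 2563 held a single methylated CpG, and 23.7% of these single CpGs were kept. Of the 4283 clusters with at least 2, 471 were all kept, 1727 all lost and 2085 mixed. Most kept CpGs, 3810, lay in mixed clusters, 1315 in clusters that were all kept, and 608 were alone. Of the 811 clusters with at least 5 methylated CpGs, 43 were all kept and 174 all lost. Runs of kept CpGs without a lost CpG in between were short: 2424 of 3656 held 1 CpG, and 88 held at least 5.

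The longest run had 14 kept CpGs over 232 bp in the coding exon of Zfp629 (chr7:134755151-134755381), averaging 87.8% in wild type against 89.9% in Dnmt3a KO. It includes the printed stretch. The next 4 runs had 8 kept CpGs each. They lay in a coding exon of Zfp180 (chr7:24890619-24890850, 88.9% in wild type and 88.7% in Dnmt3a KO), in the printed Col6a2 and chromosome 9 stretches, and between genes 9500 bp from Fbxl20 (chr11:97934114-97934368, 89.1 and 87.5%).

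Zfp629 had the largest number of kept CpGs in 1 cluster, 28. From the first to the last methylated CpG of this cluster (chr7:134754575-134755381), within a coding exon, 33 of 34 shared CpGs were at least 80% in wild type. Of these, 28 were kept. The ends of this part were set by methylated CpGs, so the values do not describe the whole exon. Over the 34, levels averaged 87.9% in wild type against 87.2% in Dnmt3a KO, with a lowest Dnmt3a KO level of 69.7%. In the part of a coding exon of Zfp787 bounded in the same way (chr7:6084159-6084471), 16 of 24 shared CpGs were at least 80% in wild type and 0 were kept. Over the 24, levels averaged 82.8% in wild type against 43.4% in Dnmt3a KO, where levels ran from 26.1 to 56.0%. Of the 33 methylated CpGs in this part of Zfp629, a purine stood on both strands at 8, on 1 at 16 and on neither at 9. Of the 16 in Zfp787, these counts were 1, 12 and 3.

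**Figure D5:**
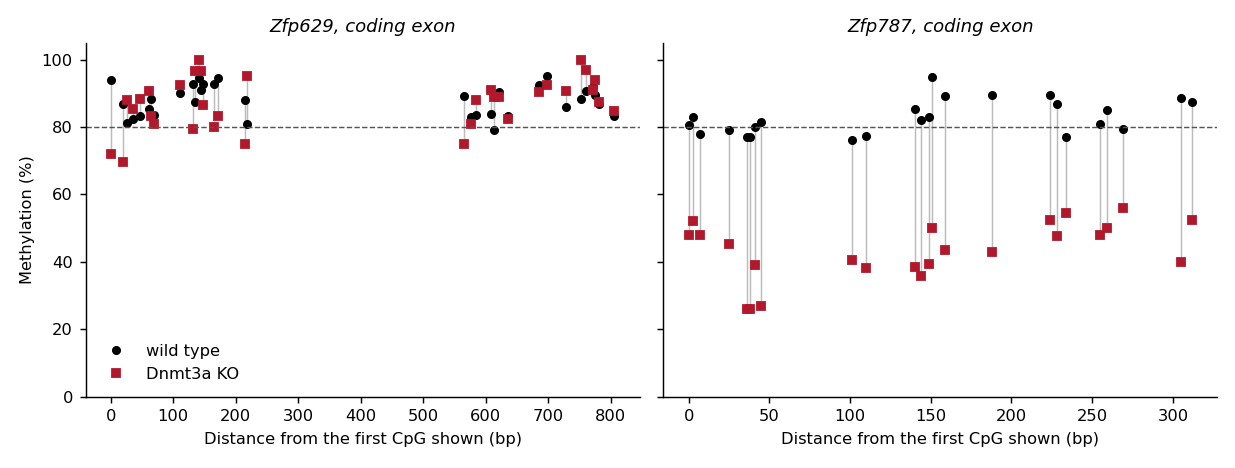
Methylation (vertical axis, %) of every shared CpG in part of a coding exon of Zfp629 and Zfp787 by distance from the first one shown (bp), wild type in black and Dnmt3a KO in red, with the limit of 80% dashed. In Zfp629 both libraries lie around 87%, whereas in Zfp787 Dnmt3a KO lies at 26.1 to 56.0%, below wild type at every CpG.

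Over protein-coding genes, 3183 held at least 1 methylated CpG in the gene body and 1679 of these at least 1 kept CpG. In 205 genes with at least 10 methylated CpGs, the median kept share was 30.8%, with 20.0 and 45.5% as quartiles. All methylated CpGs were kept in 0 of these genes, at least 80% in 4, and none in 11.

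The gene with most kept CpGs was Gm20388, with 133 of 482, a gene model that spans 4434882 bp on chromosome 8. Other protein-coding genes overlap it, and 77 of the 133 kept CpGs also lie in one of them. After it came Zfp629 with 28 of 34, Galnt2, a glycosyltransferase that starts mucin-type glycans, with 15 of 34, and Dnahc8, a dynein heavy chain, with 15 of 33. The calcium channel gene Itpr3 had 14 of 30, Fhad1 13 of 32, Agap1, a GTPase-activating protein, 12 of 26 and the teneurin gene Odz3 12 of 22. Apart from Zfp629, the kept share of these genes lay between 27.6 and 54.5%, against the median of 30.8% over the 205 genes.

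The highest kept shares were in Zfp180 with 9 of 10, Zfp629, Col6a2 with 8 of 10 and Iqsec1, an exchange factor for ARF GTPases, with 8 of 10. Ptprs, a receptor tyrosine phosphatase, had 10 of 13, Nfatc1, a calcium-regulated transcription factor, 9 of 12, the ion channel gene Accn1 8 of 11 and the integrin gene Itga6 10 of 14. Mean Dnmt3a KO levels in these 8 genes were 77.6 to 87.9%. Genes without a kept CpG included the endocytic adaptor Ston2 (16 methylated CpGs, averaging 86.5% in wild type against 46.8% in Dnmt3a KO), Zfp787 (16), the junctional protein gene Jph3 (14) and the potassium channel gene Kcnn1 (12, 85.5 and 49.0%). Git2, Myo18a and Sez6l with 12 and Erich1, Hlcs, Rab11fip4 and Unc5a with 10 also had none, which makes 11 genes tied at 0 kept. Genes were ranked by these levels, which are a description.

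Among gene families, 90 of 212 methylated CpGs of genes named Zfp were kept (42.5%), 46 of 109 of collagen genes (42.2%) and 21 of 48 of genes named Adam, Adamts or Adamtsl (43.8%), against 31.6% over all protein-coding genes. Without the gene with most kept CpGs in each, Zfp629, Col6a2 and Adamts7, the shares were 34.8, 38.4 and 39.0%. Solute carriers had 76 of 237 (32.1%), potassium channels 17 of 78 (21.8%) and keratins 5 of 20, where 4 of the 5 lie in Krt82 and 1 of 12 was kept without it. Wilson intervals were 36.0 to 49.2% for Zfp, 33.4 to 51.6% for collagen, 30.7 to 57.7% for Adam and 14.1 to 32.2% for potassium channel genes, and they treat CpGs of 1 gene as independent. In the Zfp values, the same 4 lost CpGs of Zfp664 count under both of its overlapping gene entries.

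The lists by function held few methylated CpGs. Housekeeping genes had 8 of 28 kept, pluripotency genes 3 of 12, germline genes 3 of 11, imprinted genes 7 of 25 and genes of differentiated tissues 15 of 61. Developmental transcription factors had 31 of 88 (35.2%, Wilson 95% interval 26.1 to 45.6%), and the intervals of all 6 lists included the 31.6% of all protein-coding genes. Within them, kept shares spread widely: the transcription factors ran from Nfatc1 with 9 of 12 and the Hedgehog effector Gli2 with 4 of 6 through Rara with 4 of 8, Zfpm1 with 6 of 16, Pax5 with 3 of 9 and Runx1 with 1 of 5 to Prdm16 with 1 of 14. Among tissue genes, the muscle gene Ttn had 4 of 6, the mucin gene Muc2 3 of 5, Ank1 5 of 20, Ryr1 1 of 6, and Myh3 and the surfactant gene Sftpc 0 of 5 each. Myh9 had 6 of 10, Trappc9 6 of 14, Sf3b1 2 of 6 and Clptm1 0 of 5.

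The Dnmt TKO library, not used by the rule, gives the level of reads called methylated without the enzymes. It lists 3770 kept and 7651 lost CpGs, both with a median of 14 reads. Read totals are sums over CpGs, so a read over several CpGs counts at each. Of 60102 reads at kept CpGs, 324 were methylated, 0.539% (Wilson 95% interval 0.484 to 0.601%), and of 118959 at lost CpGs 314, 0.264% (0.236 to 0.295%). At shared CpGs under 20% in wild type, the share was 0.0441%. Of the 324 reads, 144 came from 1 CpG in an intron of Dopey2 (chromosome 16, position 93789532), which had 144 of 152 Dnmt TKO reads methylated. This CpG had 96.6% in Dnmt3a KO, and its surrounding 31 bases occur 3 times in the genome. Where the 31 bases occur once, the shares were 0.299 and 0.258%, with overlapping intervals.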

How the data were processed

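The authors filtered reads for quality and adaptors, aligned them to mm9 and extracted methylation calls per CpG. Per the labels, Trim Galore and Bowtie were used, and the methods name QuasR for bisulfite alignments. CpGs over SNPs were removed. The authors deposited, per CpG, the counts of all and of methylated reads, not normalized, and their ratio as a fraction. The lowest number of reads at any CpG was 10. The counts were used here and the fraction was not.

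The members and gene lists were chosen with earlier results of these data known. CpGs with more than 20 reads in both libraries were classed at 80%. Stretches to print were not taken from untranslated regions or chromosome 18. Gene parts come from GENCODE vM1, with exon before intron, and sequence from the mm9 genome, in which every checked CpG (326785) is a CG. Shares carry Wilson and differences Newcombe 95% intervals, and a mean difference a normal interval over CpGs, all for counting error only. No p-value was taken across CpGs. Neighbour shares count each pair of methylated CpGs in both directions. The named genes are, among protein-coding genes with at least 10 methylated CpGs, the 8 with most kept CpGs and the 8 with the highest and lowest kept share, genes of the lists with at least 5, and the 5 longest runs. Fisher tests and the other functions were tested on simulated data. Python 3.11.15, numpy 2.4.6, pandas 2.3.3 and scipy 1.17.1 were used. The alternatives were other read minimums, limits, class definitions, windows, gene sets and subsets of CpGs. A comparison of soft-masked sequence was left out, because the genome used has 0 lower-case bases.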

Additional observations from a re-analysis of the deposited data

Results flagged for a closer look

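In the Dnmt TKO library, which the comparison of kept and lost CpGs does not use, 0.539% of reads at kept CpGs were methylated, above the 0.0441% at CpGs under 20% in wild type and above the 0.00499% that a count of 3 reads amounts to. Without the 10 kept CpGs with most methylated reads the value was 0.274%, and without the 10 such lost CpGs it was 0.252% at lost CpGs.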

How the results depend on the processing

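All directions were the same under every alternative that was run, and the values that left their 95% interval are given here. With over 10 reads, the kept share was 38.2%, the kept minus lost difference 11.5 for neighbours, 8.16 for G after the CpG and 25.7 for the Dnmt3a KO level, all in percentage points like the values below. With over 40 reads (432 kept CpGs), the kept share was 28.9% and the differences were -1.39 for exon share, with an interval that includes 0, 9.28 for intergenic share, 17.4 for neighbours and 22.6 for Dnmt3a KO level. The local CpG number then differed by -0.229, also with an interval that includes 0. With limits of 70%, these were 46.9% kept, 4.798 intergenic, -0.407 CpGs in local CpG number, 27.4 for neighbours and 28.4 for level. With limits of 90% (684 kept CpGs), they were 19.05% kept, 8.62 intergenic, -0.0842 CpGs, 8.95 for neighbours, 5.58 for G and 18.3 for level, and the intervals of the local CpG number and of neighbours include 0. With classes from 1 of 2 equal sets of reads, they were 35.4% kept, 5.33 for G and 15.6 for level. With CpGs whose interval in Dnmt3a KO lies on one side of 80% (371 kept CpGs), they were 6.88% kept, 11.2 intergenic, -0.131 CpGs, 65.3 for neighbours, 12.4 for G and 44.0 for level. Under that setting the exon difference was -3.66, and its interval and that of the local CpG number include 0. With lost CpGs restricted to under 60%, they were 62.4% kept, -0.541 CpGs, 53.0 for neighbours, 12.1 for G and 39.1 for level. With 1 CpG per cluster, they were 29.8% kept, -5.01 for exons, -0.495 CpGs, 16.2 for neighbours, 9.70 for G and 24.2 for level. Without MspI sites, 33.0% were kept and G differed by 4.85. Windows of 50 and 250 bp gave -0.00656 and -0.410 CpGs, the former with an interval that includes 0. Neighbours at 1 to 50 bp and at 1000 to 10000 bp gave 30.5 and 4.65. Chosen after seeing the data, leaving out Zfp629 gave 15.1 for neighbours, and CpGs whose 31 bases occur once gave 32.7% kept, -1.77 for exons and 4.48 for intergenic share. Limits that set the classes change the classes themselves, and the cause of the other changes was not tested. No paired analysis was possible because each genotype has 1 library. Depth in Dnmt3a KO limits the classes, with a median of 26 reads at kept CpGs. The comparison of soft-masked sequence was not run.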
